A study of Mus musculus with 4 samples.

Results

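The nuclear genes for subunits of the oxidative phosphorylation system were followed in mouse macrophages. The 49 genes were taken from a list of symbols matched by NCBI gene ID, and all 49 were among the 16403 genes listed in the 4 libraries. They comprised 23 subunits of complex I, 7 of complex III, cytochrome c, 11 of complex IV and 7 of complex V. Total RNA was sequenced from thioglycolate-elicited peritoneal macrophages of C57BL/6 mice (4% thioglycolate for 4 days), which adhered for 4 h and were kept in DMEM with 0.5% serum. The study asked how Trim24, also called TIF1a, shapes the response to IL-4. The 4 groups were wild-type untreated, wild-type with IL-4, knockout untreated and knockout with IL-4, with IL-4 given at 20 ng/mL for 6 h. The knockout carried floxed Trim24 alleles and LysM-Cre, so the deletion was restricted to the myeloid lineage, and the wild-type mice were littermates; the study's methods give an age of 6 to 8 weeks for mice used for such cells, and whether animals were pooled is not given in the sources used here. Each group held 1 library, so nothing below has a replicate check and every p-value compares libraries, not conditions.

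The libraries held 11026033 to 11250099 expected reads, the read numbers that RSEM assigned to genes. Trim24 was at 2.55 and 1.48 FPKM (fragments scaled to transcript length and library size) in the wild-type libraries and at 0.06 and 0.14 FPKM in the knockout libraries, in the direction the labels give. The macrophage markers Adgre1 (68.5 to 97.7 FPKM), Csf1r (135 to 285 FPKM) and Cd68 (3005 to 3465 FPKM) were present in all 4 libraries. So were Itgam (68.0 to 98.3 FPKM), Mertk (22.6 to 35.3 FPKM) and Lyz2 (4761 to 11289 FPKM). Adgre1 and Csf1r were higher in both IL-4 libraries. Itgam and Mertk were higher and Lyz2 lower in both knockout libraries. The part of these differences in the results was not tested. Summed markers of B cells (4.08 to 6.52 FPKM), T cells (1.05 to 2.04 FPKM), neutrophils (5.15 to 8.86 FPKM) and mast cells (2 to 5.83 FPKM) were low. Those of mesothelial cells or fibroblasts were higher, at 23.7, 18.0, 11.3 and 23.8 FPKM in the order of the 4 groups. The neutrophil genes S100a9 and Ly6g and the eosinophil gene Epx were listed in none of the libraries. In such bulk RNA, fewer cells of a type and less RNA per cell cannot be told apart.

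Oxidative phosphorylation moves electrons from NADH through complex I to ubiquinone, through complex III to cytochrome c and through complex IV to oxygen, and complex V makes ATP from the proton gradient this builds. Most subunits are nuclear genes, while a small core is encoded by mitochondrial DNA, so both genomes have to contribute to complexes I, III, IV and V. Macrophages activated by IL-4 are known for oxidative metabolism, and the coactivator PGC-1β has been tied to it.

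Promoters of respiratory genes often carry sites for NRF1, GABP and YY1, and such letters were searched in the windows around the start of the subunit genes. A RefSeq window on GRCm38.p6, from 250 bases before to 50 bases after the start, was given for 39 of the 49 genes (43 windows). The first 3 sequences are the 250 bases before the start of Cycs (chr6:50566570-50566819, minus strand), which had the highest IL-4 ratio, of Cox6a1 (chr5:115348959-115349208, minus strand), which did not pass the IL-4 test and is shown for its 3 motif matches, and of Ndufa1 (chrX:37191239-37191488, minus strand), which had the lowest mean IL-4 ratio and held no match. Capitals mark a match to one of the motifs listed after the sequences.
Cycs: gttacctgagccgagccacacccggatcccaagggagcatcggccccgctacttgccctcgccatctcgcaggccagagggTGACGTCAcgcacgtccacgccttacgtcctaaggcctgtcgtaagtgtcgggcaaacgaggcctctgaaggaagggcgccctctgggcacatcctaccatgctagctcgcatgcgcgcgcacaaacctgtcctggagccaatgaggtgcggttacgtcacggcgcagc
Cox6a1: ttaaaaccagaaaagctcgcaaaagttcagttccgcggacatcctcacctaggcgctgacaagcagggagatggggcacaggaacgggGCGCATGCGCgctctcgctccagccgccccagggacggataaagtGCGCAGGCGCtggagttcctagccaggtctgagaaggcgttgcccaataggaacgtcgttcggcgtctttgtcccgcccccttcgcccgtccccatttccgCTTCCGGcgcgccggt
Ndufa1: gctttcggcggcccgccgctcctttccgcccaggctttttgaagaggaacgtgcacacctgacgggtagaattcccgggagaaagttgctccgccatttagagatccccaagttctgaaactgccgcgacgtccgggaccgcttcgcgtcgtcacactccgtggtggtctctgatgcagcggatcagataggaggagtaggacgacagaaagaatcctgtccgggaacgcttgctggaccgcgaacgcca

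In 4 further genes that rose with IL-4 the matches lay after the start, and 30 bases around the last of them are shown for each. Uqcrc1 held another NRF1 match at bases 6 to 15, before the stretch shown. The stretches are those of Uqcrc1 (chr9:108936668-108936697, plus strand), Ndufs4 (chr13:114388045-114388074, minus strand), Ndufs7 (chr10:80249462-80249491, plus strand) and Atp5o (chr16:91931601-91931630, minus strand). The start used for Ndufs7 lies inside the gene, which begins at chr10:80249105.
Uqcrc1: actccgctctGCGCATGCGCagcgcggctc
Ndufs4: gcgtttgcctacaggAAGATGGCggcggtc
Ndufs7: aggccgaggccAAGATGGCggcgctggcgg
Atp5o: ctggcgcgcGCGCGTGCGCtctggcgccag

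Letters were searched on both strands and without regard to overlap between motifs. The NRF1 letters GCGCNTGCGC were found in 9 of the 43 windows (20.9%), against 10.8% of the windows of genes tested and 4.60% of all windows. The YY1 letters AAGATGGC were found in 5 windows (11.6%), against 4.90% and 2.75%. For the ETS letters CCGGAAG, bound by GABP, the share of 20.9% stood beside 19.5% of the windows of genes tested and 8.86% of all windows. The STAT6 letters TTCNNNNGAA were in 3 windows (6.98%), beside 5.42% and 6.95%, and the ERR letters TCAAGGTCA in 0 of 43, beside 0.289% and 0.423%. The cAMP response element TGACGTCA, searched only after the Cycs promoter had been read, was in 4 windows (Cycs, Ndufa10, Ndufb2 and Uqcrfs1; 9.30%), beside 3.12% and 1.79%. In Cycs it spanned bases 169 to 162 before the start. These matches describe letters in a window and not binding.

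The subunit genes were expressed at a high level in all 4 libraries. Their median was 77.8 FPKM in wild-type untreated, 93.6 FPKM in wild-type with IL-4, 69.1 FPKM in knockout untreated and 73.6 FPKM in knockout with IL-4, where the median of the genes tested (10532 genes averaging 1 FPKM or more) was between 10.3 and 10.7 FPKM. The members' median lay above 90.8% to 92.7% of the genes tested. All 49 passed the filter of 1 FPKM, and each was covered by 123 to 8647 reads in a library (median 715.5).

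Among complexes, mean levels were highest for subunits of complexes IV and V and lowest for cytochrome c. In complex I they ran from 16.6 FPKM for Ndufs4, an accessory subunit needed for a stable NADH-oxidising arm, to 211 FPKM for Ndufa3, a small accessory subunit. In complex III they ran from 36.4 FPKM for Uqcrfs1, the Rieske iron-sulfur protein, to 204 FPKM for Uqcrb. The range was 52.5 FPKM (Cox7b) to 334 FPKM (Cox6b1) in complex IV and 120.4 FPKM (Atp5d) to 340.1 FPKM (Atp5b, the catalytic β subunit) in complex V. Cycs, the gene of the electron carrier cytochrome c, had a mean of 28.7 FPKM.

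**Figure D1:**
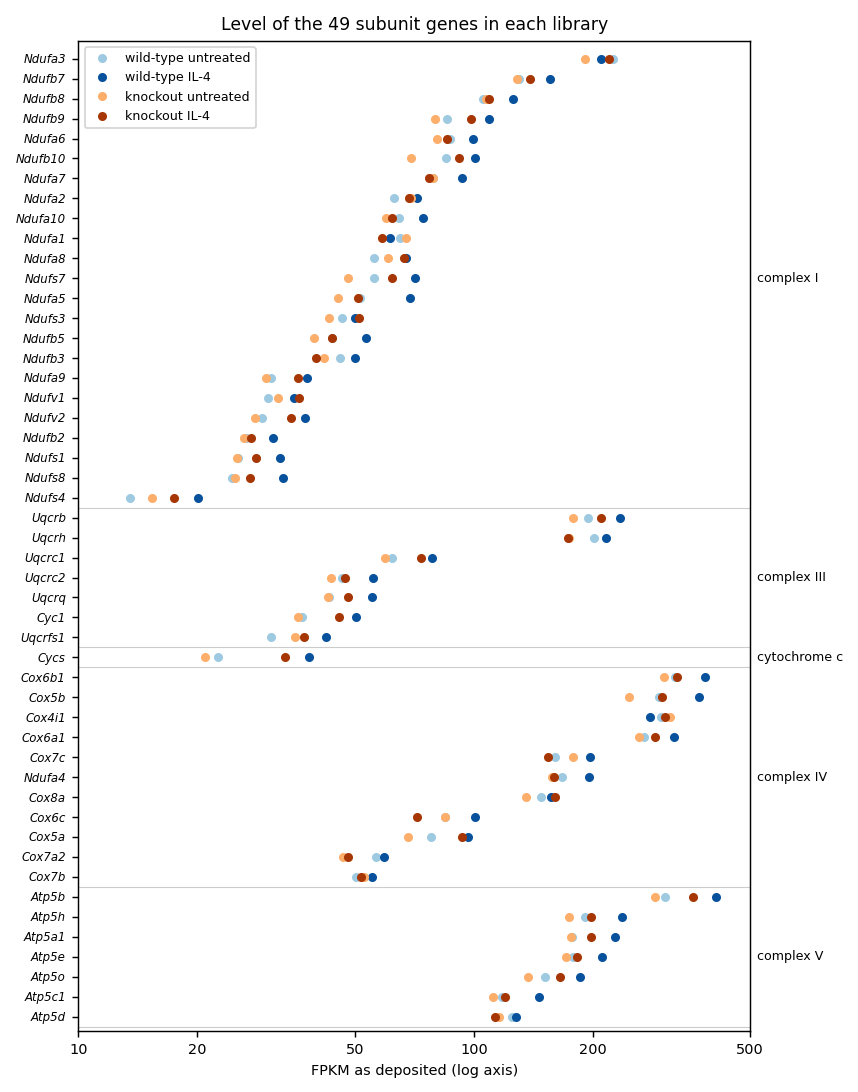
Deposited FPKM (log axis) of each of the 49 subunit genes in the 4 libraries, 1 point per library, grouped by complex and ordered by mean level. The wild-type IL-4 library was the highest for 43 of the 49 genes and the knockout untreated library the lowest for 33, before the length trend was removed.

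As deposited, the wild-type IL-4 library was the highest of the 4 for 43 of the 49 genes, and the knockout untreated library was the lowest for 33. The members took 0.427% of the reads in wild-type untreated (95% Wilson interval 0.423 to 0.430), 0.519% in wild-type with IL-4 (0.515 to 0.524), 0.408% in knockout untreated (0.404 to 0.411) and 0.458% in knockout with IL-4 (0.454 to 0.462). These intervals cover counting error only, since each group held 1 library. The fragments also carried no molecular identifiers, so copies of a molecule were counted as separate reads. The share was thus 1.22 times as high with IL-4 in wild-type cells and 1.12 times as high in knockout cells.

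The deposited ratios depended on transcript length, and the members are short. Their median length was 754 bases (349 to 3059), against 2716 bases over all genes tested, and 35 of the 49 fell into the shortest of 8 bins (up to 1186 bases). In that bin the median of all genes was 0.16 on the log2 scale for IL-4 over untreated in wild-type cells and 0.02 in knockout cells, and -0.17 for knockout over wild-type with IL-4. Across all genes tested, Spearman's rho between length and the IL-4 ratio was -0.36 in wild-type cells and -0.10 in knockout cells. A lowess curve over length was therefore subtracted from each library, after which rho was 0.01 in both. The curve took 0.14 (median over members) from the wild-type IL-4 library and between -0.06 and -0.01 from the others. The cause of the trend was not tested. Ratios below are differences of log2(FPKM + 0.1) with this trend removed, each with a standard error (SE) for counting error alone.

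**Figure D2:**
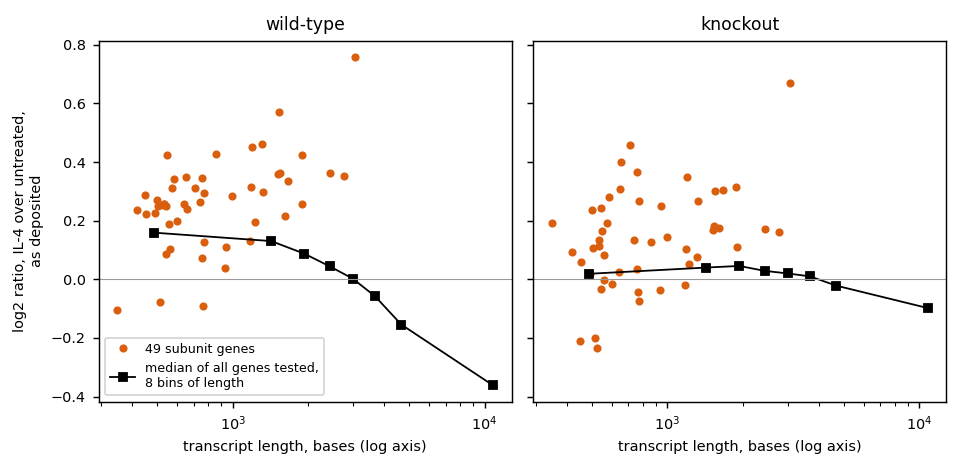
Log2 ratio of IL-4 over untreated as deposited (y axis) against transcript length in bases (log x axis), in wild-type (left) and knockout (right). Points are the 49 subunit genes, and squares are medians of all genes tested in 8 bins of length. In the shortest bin, which holds 35 subunit genes, the median of all genes was 0.16 in wild-type cells and 0.02 in knockout cells.

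With IL-4, most subunit genes were slightly higher in both genotypes. With the trend removed the median ratio was 0.12 in wild-type cells (1.09-fold) and 0.12 in knockout cells (1.08-fold), where the medians of all genes tested were 0.01 and 0.01. As deposited these medians were 0.26 and 0.14. In each genotype 39 of 49 genes (79.6%) were higher with IL-4, against 51.7% and 51.0% of all genes tested, and as deposited the numbers were 46 and 39, against 48.9% and 51.1% of all genes tested. In 35 genes the ratio was above 0 in both genotypes, in 6 it was below 0 in both, and in 8 the signs were opposite; of all genes tested 39.0% were above 0 in both. Both IL-4 libraries stood above both untreated libraries in 31 genes (63.3% of 49, beside 32% of all genes tested) and below them in 2, Atp5d and Ndufa1 (4.08%, beside 29.3%).

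An additive fit of genotype and IL-4 across 11791 genes with edgeR's quasi-likelihood test, which has 1 residual degree of freedom, found 15 of the 49 genes higher with IL-4 and none lower (adjusted p below 0.05). Of all genes in the fit, 17.9% were called higher and 15.8% lower, so the members' share was 30.6% against 17.9% in one direction and 0% against 15.8% in the other. Without adjustment, 23 members (46.9%) had a p under 0.05, near the 41.3% of all genes, and 21 of them (42.9%) were higher, beside 21.6% of all genes. The 15 genes were 6 of 23 in complex I, 3 of 7 in complex III, cytochrome c, 2 of 11 in complex IV and 3 of 7 in complex V. With DESeq2 only Atp5b and Cycs of the 15 passed. The counting SE was smaller for the members than for all genes tested (root mean square 0.08 against 0.27 in wild-type cells). Shares at a matched level were not compared.

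By size, 1 gene exceeded 1.5-fold. Cycs did so in both genotypes, and no subunit gene was lower by as much. Of all genes tested, 7.11% were higher and 7.87% lower by over 1.5-fold in wild-type cells, and 7.25% and 6.32% in knockout cells, so both member counts of 1 in 49 (2.04%) were under the background. Over 25% higher were 6 members in wild-type cells (12.2%, beside 16.5% of all genes tested) and 4 in knockout cells (8.16%, beside 15.3%).

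**Figure D3:**
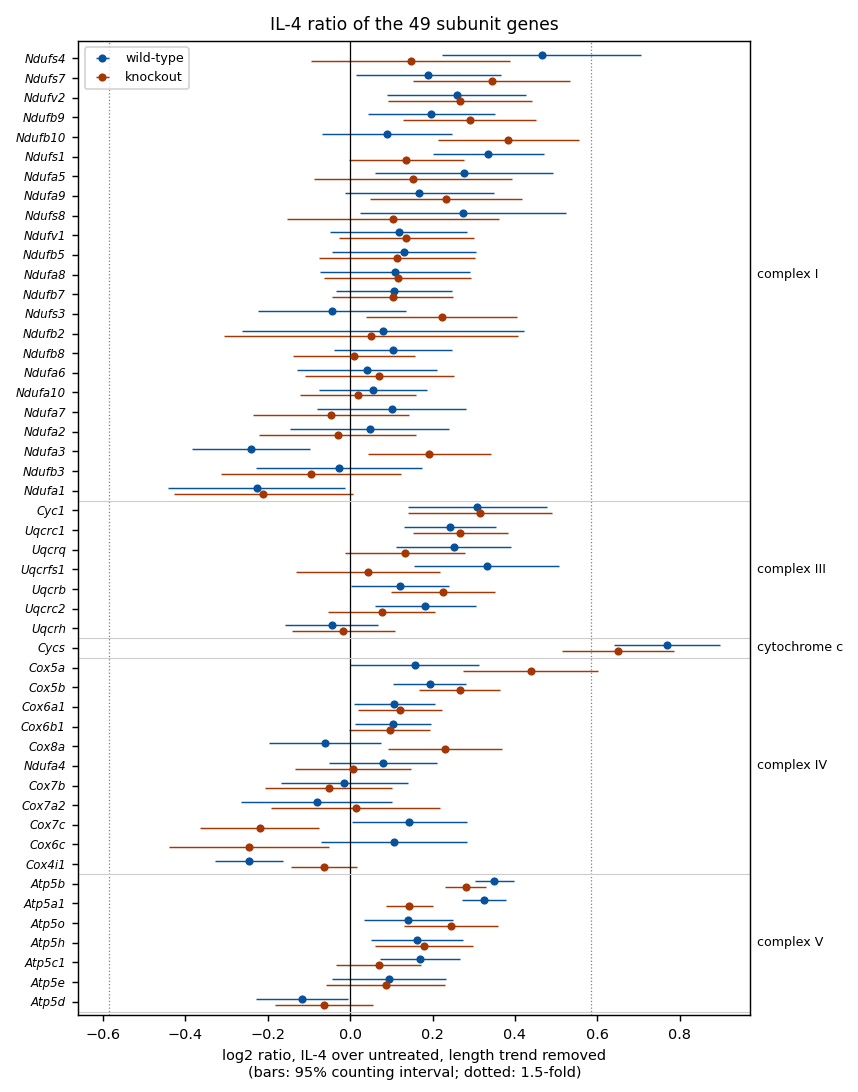
Log2 ratio of IL-4 over untreated (x axis) for each of the 49 subunit genes in wild-type and knockout, with the length trend removed; bars are 95% counting intervals and dotted lines mark 1.5-fold. Cycs, at 0.77 and 0.65, stood beyond the dotted line in both genotypes, and 39 genes in each genotype were above 0.

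Cycs (chromosome 6) was at 22.6 FPKM in wild-type untreated, 38.2 FPKM in wild-type with IL-4, 20.9 FPKM in knockout untreated and 33.2 FPKM in knockout with IL-4. The corresponding reads numbered 766, 1324, 708 and 1127, and both IL-4 libraries stood well above both untreated ones. Its ratio was 0.77 (SE 0.07) in wild-type cells and 0.65 (SE 0.07) in knockout cells, or 1.70-fold and 1.57-fold, and the edgeR fit gave 0.72 (adjusted p = 2.1e-20). Its transcript of 3059 bases is the longest of the members, and as deposited the folds were 1.69 and 1.59.

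In complex I, the 6 core subunits, of the arm that takes electrons from NADH to ubiquinone, had median IL-4 ratios of 0.22 in wild-type cells and 0.18 in knockout cells, and the 17 accessory subunits 0.10 and 0.10. This grouping was made after the values were seen and was not tested. The core transcripts were also longer, with a median of 1240 bases against 641 bases for the accessory subunits. Ndufs1, the largest iron-sulfur core subunit, was at 25.3 and 32.3 FPKM (untreated, then IL-4) in wild-type cells and at 25.2 and 28.2 FPKM in knockout cells. Ndufv2, of the NADH-oxidising module, was at 29.1 and 37.4 FPKM and at 27.9 and 34.4 FPKM, and Ndufs7, which passes electrons towards ubiquinone, at 56.0 and 71.1 FPKM and at 48.2 and 62.0 FPKM. In all 3 genes both IL-4 libraries were above both untreated libraries, and the edgeR fit gave 0.25 (adjusted p = 0.0055), 0.27 (0.009) and 0.26 (0.013). The other core subunits, Ndufs3, Ndufs8 and the flavin-binding Ndufv1, did not pass (mean FPKM of 47.7, 27.4 and 33.3), and Ndufs3 had a ratio of -0.04 (SE 0.09) in wild-type cells and 0.22 (SE 0.09) in knockout cells.

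Of the accessory subunits of complex I, 3 passed the test. Ndufs4 was at 13.5 and 20.1 FPKM in wild-type cells and at 15.3 and 17.4 FPKM in knockout cells, with ratios of 0.47 (SE 0.12) and 0.15 (SE 0.12) and 0.31 in the edgeR fit (adjusted p = 0.013). Ndufb9 and Ndufb10, of the membrane arm, rose by 0.24 (adjusted p = 0.014) and 0.23 (adjusted p = 0.024) in the same edgeR fit. Ndufb9 was at 85.6 and 109 FPKM in wild-type cells and at 79.7 and 98.6 FPKM in knockout cells, and Ndufb10 at 85.0 and 100.5 FPKM and at 69.5 and 91.8 FPKM. The increase of Ndufb10 was thus the larger in knockout cells (0.38, SE 0.09) and the smaller in wild-type cells (0.09, SE 0.08), a difference that was not tested.

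No other accessory subunit passed in either direction. Ndufa1, which is needed for assembly of the membrane arm, had the lowest mean IL-4 ratio of the 49 genes. It was at 65.0 and 61.5 FPKM in wild-type cells and at 67.2 and 58.5 FPKM in knockout cells, so both IL-4 libraries were below both untreated ones, with ratios of -0.23 (SE 0.11) and -0.21 (SE 0.11) and an adjusted p of 0.07 in the edgeR fit. Ndufb3 was at 45.8, 50.02, 41.8 and 39.8 FPKM in the order of the 4 groups, and the groups overlapped. Ndufa3 is short (349 bases) and gave opposite signs, -0.24 (SE 0.07) in wild-type cells and 0.19 (SE 0.08) in knockout cells, from 225, 209, 192 and 219 FPKM.

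Complex III had the highest median of the 4 complexes in wild-type cells, 0.24, against 0.13 in knockout cells. Its median transcript length was also the highest, 1313 bases, against 931 in complex V, 739 in complex I and 545 in complex IV. Within the members the corrected wild-type ratio was higher for longer transcripts (rho 0.55). The part of length in the order of the complexes was not tested. Cyc1, the cytochrome c1 that hands electrons to cytochrome c, was at 36.8 and 50.3 FPKM in wild-type cells and at 35.9 and 45.7 FPKM in knockout cells, with a ratio of 0.31 (SE 0.09) in each. Uqcrc1, a core protein, was at 62.2 and 78.5 FPKM and at 59.6 and 73.5 FPKM, and Uqcrq, a small subunit, at 43.1 and 55.3 FPKM and at 42.7 and 48.0 FPKM. All 3 rose in the edgeR fit, by 0.31 (adjusted p = 0.0015), 0.26 (0.0015) and 0.20 (0.039). The call of Uqcrq was lost in 4 of 5 alternative fits (adjusted p = 0.058 to 0.55 with edgeR without the offset, edgeR on all genes with a read, limma and DESeq2). Uqcrfs1 was at 30.7 and 42.4 FPKM in wild-type cells and at 35.2 and 37.1 FPKM in knockout cells, a ratio of 0.33 (SE 0.09) against 0.04 (SE 0.09), and did not pass (adjusted p = 0.081). Uqcrb (195, 235, 178 and 209.9 FPKM in group order) and Uqcrc2 also had higher values with IL-4 in both genotypes without passing. Uqcrh, the hinge protein, was at 201, 216, 174 and 173 FPKM, and its ratios of -0.04 and -0.02 lay within their counting intervals.

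Complex IV had medians of 0.10 in wild-type cells and 0.01 in knockout cells. Its nuclear subunits surround a catalytic core that is encoded by mitochondrial DNA. Cox5a and Cox5b, both on the matrix side, passed. Cox5a was at 77.8 and 96.4 FPKM in wild-type cells and at 68.2 and 93.6 FPKM in knockout cells, and Cox5b at 293 and 372 FPKM and at 247 and 299 FPKM. In the edgeR fit they rose by 0.29 (adjusted p = 0.0022) and 0.23 (adjusted p = 0.004). Cox6a1 and Cox6b1, at 262 FPKM or more in every library, had ratios of 0.10 to 0.12 in both genotypes and did not pass.

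The other complex IV genes did not pass either. Cox4i1, the widely expressed form of subunit 4, was at 298, 279.6, 312.5 and 304 FPKM in group order, with ratios of -0.25 (SE 0.04) in wild-type cells and -0.06 (SE 0.04) in knockout cells and an adjusted p of 0.056 in the edgeR fit. Cox7c (161, 196, 178 and 154 FPKM) had ratios of 0.14 (SE 0.07) and -0.22 (SE 0.07), and Cox6c (84.4, 101, 84.4 and 71.8 FPKM) of 0.11 (SE 0.09) and -0.25 (SE 0.10). As deposited, the wild-type IL-4 library was the highest of the 4 and the knockout IL-4 library the lowest for both genes. With the trend removed the knockout untreated library was the highest for Cox7c, at 0.21 over wild-type untreated. Cox7b, at 50.4 to 55.1 FPKM, and Ndufa4, first described with complex I, had ratios within their counting intervals in both genotypes.

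In complex V the medians were 0.16 in wild-type cells and 0.14 in knockout cells. Atp5b was the most abundant subunit transcript with IL-4, at 305 and 409 FPKM in wild-type cells and at 288 and 358 FPKM in knockout cells. Atp5a1, the α subunit that forms the catalytic head together with Atp5b, was at 177.05 and 228 FPKM and at 176 and 198 FPKM, and Atp5o, in the stalk that holds the head, at 151 and 186 FPKM and at 137 and 165 FPKM. In all 3 genes both IL-4 libraries were above both untreated ones, and the edgeR fit gave 0.32 (adjusted p = 6.9e-06), 0.24 (0.0011) and 0.19 (0.023). The ratio of Atp5a1 was 0.33 (SE 0.03) in wild-type cells and 0.14 (SE 0.03) in knockout cells. Atp5b had 0.35 and 0.28, and Atp5o, with the larger ratio in knockout cells, 0.14 and 0.25. These differences were not tested. Atp5c1, Atp5e and Atp5h also had both IL-4 libraries on top and did not pass. Atp5d, of the central stalk, was at 125, 128, 116 and 113 FPKM, with ratios of -0.12 (SE 0.06) and -0.06 (SE 0.06).

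The subunit genes differed from each other by more than counting error. The SD of their IL-4 ratios was 0.18 in wild-type cells and 0.17 in knockout cells, where the root mean square of the counting SE was 0.08 and 0.09. Over the 49 genes, the wild-type and knockout ratios, which come from separate libraries, had a Pearson r of 0.56 and a Spearman rho of 0.55. Without Cycs these were 0.42 and 0.52. Within the members the corrected wild-type ratio was higher for longer transcripts (rho 0.55, and 0.32 in knockout cells). As deposited the members already had rho 0.47 and 0.36, opposite to the -0.36 and -0.10 of all genes tested.

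Between genotypes the subunit genes were close to level in their median. The median ratio of knockout over wild-type was -0.03 untreated and -0.02 with IL-4, where all genes tested had medians of 0.001 and -0.002. As deposited the medians were -0.07 and -0.20, and 44 of 49 genes (89.8%) were lower in knockout cells with IL-4, beside 47.8% of all genes tested. With the length trend removed 30 of 49 (61.2%) were lower with IL-4, beside 50.4% of all genes tested. Untreated, 28 of 49 (57.1%) were lower, beside 49.8%. Among the complexes the medians, untreated and with IL-4, ran from -0.01 and -0.01 in complex I to -0.06 and -0.07 in complex V. With IL-4, 11 genes were lower beyond their counting interval and 4 higher (30.6% together, beside 28.3% of all genes tested). The 11 included Atp5a1 (-0.17, SE 0.03) and Atp5b (-0.13, SE 0.02). No member passed 1.5-fold in either pair, where 2.36% of all genes tested were higher and 1.93% lower untreated, and 3.35% and 1.51% with IL-4. Lyz2, a macrophage marker whose own promoter drives Cre expression, was at 11289 and 10811 FPKM in the wild-type libraries and at 5193 and 4761 FPKM in the knockout libraries.

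**Figure D4:**
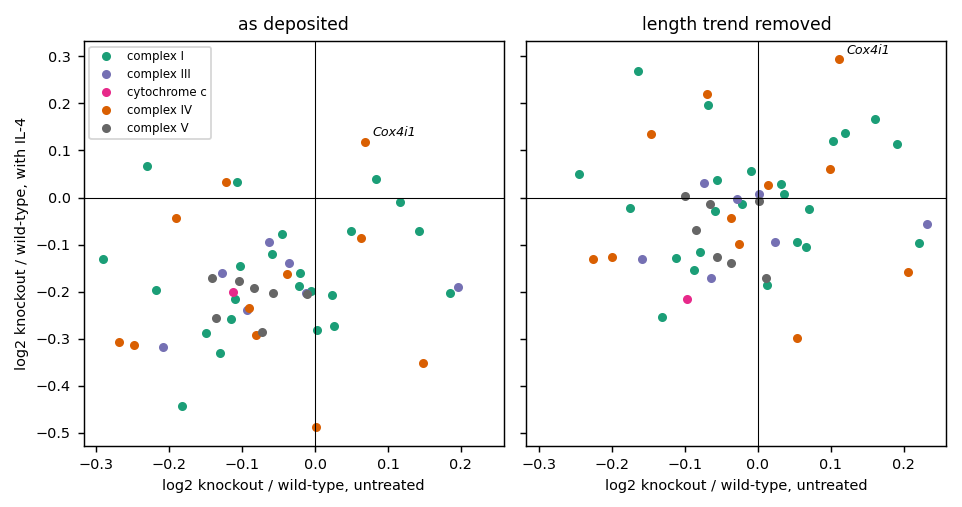
Log2 ratio of knockout over wild-type with IL-4 (y axis) against that untreated (x axis) for the 49 subunit genes, as deposited (left) and with the length trend removed (right), coloured by complex. With IL-4, 44 genes lay below 0 as deposited and 30 with the trend removed.

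In the edgeR fit, 1 of 49 genes (2.04%) was higher in knockout cells, beside 3.65% of all genes, and none was lower, beside 2.06%. Without adjustment 4 members (8.16%) had a p under 0.05, beside 16% of all genes, and DESeq2 and limma called none. The gene was Cox4i1, with ratios of 0.11 (SE 0.04) untreated and 0.29 (SE 0.04) with IL-4 and 0.20 in the edgeR fit (adjusted p = 0.044), which rested on the length correction: without it the gene did not pass. The other genes highest by their mean ratio were Ndufa8 (0.16 untreated and 0.17 with IL-4), Ndufa2 (0.19 and 0.11), Ndufv1 (0.12 and 0.14) and Ndufa1 (0.10 and 0.12). The lowest were Ndufa5 (-0.13 and -0.25), Cox7a2 (-0.23 and -0.13), Cox5b (-0.20 and -0.13), Cycs (-0.10 and -0.22) and Uqcrh (-0.16 and -0.13). None of these 9 passed. Over the 49 genes the untreated and IL-4 ratios had an r of 0.12 and a rho of 0.16, and in 20 genes the signs were opposite.

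The response to IL-4 had nearly the same median in both genotypes. The knockout ratio minus the wild-type ratio had a median of -0.003 (as deposited -0.12), with 24 genes above and 25 below 0. In 12 genes the difference exceeded its counting interval (24.5%, beside 16.9% of all genes tested), 6 in each direction. The root mean square of the counting SE of this difference was 0.12 for the members and 0.37 for all genes tested. A difference of the same size thus passed more easily among the members. No residual was left to test the difference.

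Other genes of the system were described by lists drawn up from general knowledge. Of 30 genes listed as other nuclear subunits, including complex II, 4 rose with IL-4 (Ndufab1, Ndufv3, Sdhb and Atp5f1) and 2 fell (Cox7a2l and Atpif1) in the edgeR fit. The median ratios of the list were 0.03 in wild-type cells and 0.11 in knockout cells. The 2 that fell are not regular subunits: Atpif1 encodes an inhibitor of complex V, and Cox7a2l a factor that joins complexes into larger assemblies. Sdhb, the iron-sulfur subunit of complex II, was at 78.1 and 107 FPKM in wild-type cells and at 74.8 and 88.9 FPKM in knockout cells (adjusted p = 0.0017 in the edgeR fit). These 6 genes were named after their values were seen. Of 40 assembly factors 7 rose and 1 fell, of 76 mitochondrial ribosomal proteins 11 rose and none fell, and of 35 proteasome subunits 8 rose and 2 fell. The shares that rose were 13.3% of the other subunits, 17.5% of the assembly factors and 14.5% of the mitochondrial ribosomal proteins. These were at or under the 17.9% of all genes, and that of the proteasome subunits was 22.9%. The mitochondrial ribosomal proteins had median ratios of 0.14 in wild-type and 0.04 in knockout cells, beside 0.12 and 0.12 for the members. Of these ribosomal genes 76.3% and 64.5% were higher with IL-4, beside 79.6% of the members in each genotype. The medians were 0.08 and 0.05 for the assembly factors and 0.08 and 0.09 for the proteasome subunits. In the proteasome list the increase was led by the immunoproteasome gene Psmb10, at 53.8 and 274 FPKM in wild-type cells and at 55.3 and 257 FPKM in knockout cells. None of the 13 subunits encoded by mitochondrial DNA was listed, so they were not analysed here.

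**Figure D5:**
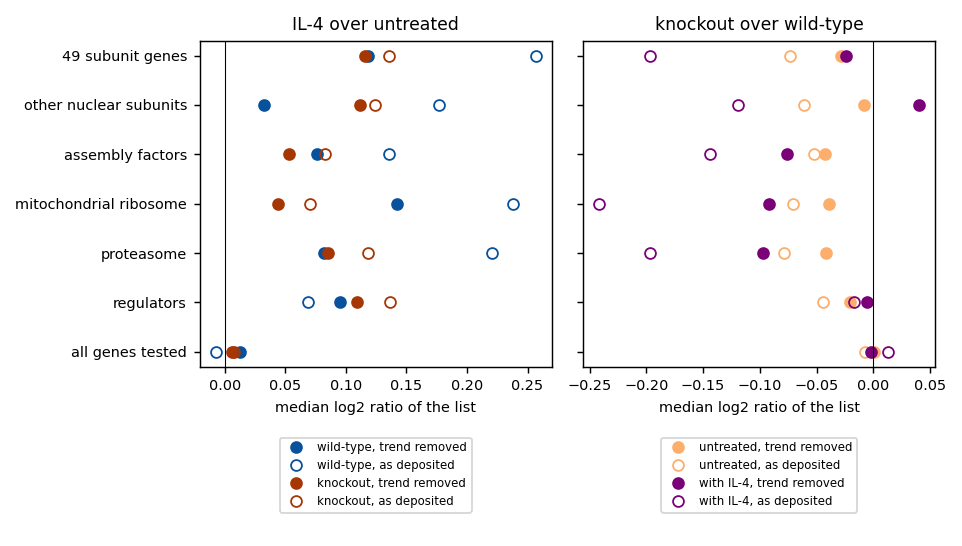
Median log2 ratio of each gene list for IL-4 over untreated (left, by genotype) and knockout over wild-type (right, by treatment); filled points have the length trend removed and open points are as deposited. The 49 subunit genes had IL-4 medians of 0.12 and 0.12 with the trend removed, and 0.26 and 0.14 as deposited.

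Among 12 regulators of respiratory genes, 3 rose with IL-4 and 1 fell in the edgeR fit. Ppargc1b, the gene of PGC-1β, was at 1.99 and 3.81 FPKM in wild-type cells and at 2.14 and 5.59 FPKM in knockout cells, with both IL-4 libraries above both untreated ones and ratios of 0.98 (SE 0.20) and 1.35 (SE 0.18). Ppargc1a, the gene of the related PGC-1α, fell (adjusted p = 0.044 in the edgeR fit) at levels of 0.17 to 0.49 FPKM and 12.3 to 35 reads. Pprc1 and Gabpb1 were the other 2 that passed, each with uneven FPKM ratios in the genotypes. Pprc1 was at 9.36, 8.23, 7.87 and 10.7 FPKM in group order, with ratios of 0.05 (SE 0.09) in wild-type cells and 0.49 (SE 0.09) in knockout cells, and Gabpb1 at 5.19, 8.24, 5.03 and 5.79 FPKM, with ratios of 0.61 (SE 0.16) and 0.17 (SE 0.17). The reads of Gabpb1, which the edgeR fit used, were 143, 198, 125 and 161 in group order. These reads rose in both genotypes and were less uneven between them than the FPKM values. The factors Esrra (15.1, 17.5, 15.8 and 16.9 FPKM in group order), Nrf1 (6.38 to 7.4 FPKM), Gabpa (9.04 to 10.4 FPKM) and Tfam (3.92 to 4.77 FPKM) did not pass.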

How the data were processed

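Total RNA was sequenced on an Illumina HiSeq instrument. The authors used Bowtie for mapping to mm10 (GRCm38) and RSEM for quantification of RefSeq transcripts (versions not given in the sources used here). The deposited expected counts are reads assigned per gene and need not be whole. The deposited FPKM values divide them by effective length and library total. Unlisted genes were set to 0. Of 16403 gene IDs, 16365 matched a RefSeq table of GRCm38.p6 and 38 did not.

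The members, lists and tests were chosen with earlier results of these data known. Ratios used log2(FPKM + 0.1), which understates changes of low genes, minus a lowess curve (fraction 0.3, statsmodels 0.14.6) over log2 length, fitted to genes of at least 200 bases and 1 FPKM. A fold above 1.5 follows the study's threshold. Expected counts were rounded and fitted with edgeR 4.0.16 (TMM, filterByExpr, curve as offset, Benjamini-Hochberg). A run of this fit on simulated counts used changes larger than those of the members, so it does not bear on their calls. Alternatives included DESeq2 1.42.0, limma 3.58.1, other scalings, filters, pseudocounts and curves. Named in full were the highest and lowest member of each complex by level, the 5 highest and 5 lowest by mean IL-4 and mean knockout ratio, members past 1.5-fold, 6 regulators, and listed genes past 1.5-fold in both pairs at 5 FPKM or more. Values of other members, of the 15 called and of 2 with opposite signs were added after they were seen.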

Additional observations from a re-analysis of the deposited data

Results flagged for a closer look

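In 2 genes the IL-4 ratio had opposite signs in wild-type cells and the knockout, each beyond its counting interval. The knockout ratio minus the wild-type ratio was 0.43 for Ndufa3 (-0.24 in wild-type cells, 0.19 in knockout cells) and -0.36 for Cox7c (0.14 and -0.22). With 1 library per group the difference was not tested. Both transcripts are short, at 349 and 449 bases, and the length correction bears on them differently. As deposited Ndufa3 had ratios of -0.10 (SE 0.07) and 0.19, the first within its counting interval, so its opposite signs beyond that interval rest on the correction. Cox7c had 0.29 and -0.21 as deposited, a difference of -0.50.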

How the results depend on the processing

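Without removal of the length trend the median ratio was 0.26 for IL-4 in wild-type cells, -0.0731 for the knockout untreated, -0.20 for the knockout with IL-4 and -0.12 for the difference of the IL-4 ratios. The ratio of summed reads, added after the data were seen and also without removal of the trend, gave 0.28, 0.17 (IL-4 in knockout cells), -0.0658 and -0.18. With no filter on low values the knockout median with IL-4 was -0.0522. Under the other alternatives, among them a further curve over GC content and the members without Cycs (both added after the data were seen), the IL-4 medians ran from 0.09 to 0.14 in wild-type cells and from 0.10 to 0.14 in knockout cells. Past a threshold of 25% higher with IL-4 there were 6 genes in wild-type cells (12.2%) and 4 in knockout cells (8.16%), beside 16.5% and 15.3% of all genes tested. For IL-4 in the additive fit, 13 members were called without the offset, 15 with upper-quartile scaling, 14 with all genes with a read, 18 with limma (17 higher, and Ndufa1 lower; 14 shared with the 15) and 2 with DESeq2. The calls lost outside DESeq2 were those of Ndufs1 without the offset, and of Uqcrq without it, with all genes and with limma. For genotype the count was 0 without the offset, with all genes with a read, with DESeq2 and with limma. Over all genes the calls for IL-4 (2109 higher and 1862 lower) were 811 and 644 with DESeq2, and those for genotype (430 and 243) were 152 and 44 without the offset, 84 and 17 with DESeq2 and 190 and 66 with limma. The cause of these differences was not tested. No paired analysis was possible because each group held 1 library. Leaving out a library leaves no residual, so the ratios of single pairs are given as values.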
